A study of Mus musculus with 9 samples.

Results

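The brain is a mosaic of regions whose neurons carry different transcripts, so genes of the striatum, thalamus and hippocampus can be followed on each array of a whole-tissue study. The 9 genes described here were chosen as region markers, with earlier results of these data known. Drd1 and Ido1 stand for the striatum, Tcf7l2, Calb2, Rora and Ntng1 for the thalamus, and C1ql2, Fibcd1 and Bok for the hippocampus. They are 9 of 8127 genes that could be named, found by probes whose identifier carries the NCBI mouse gene number of the gene, which gave 11 of 46116 probes. Of these, 10 probes, covering all 9 genes, were above background on at least 4 of the 9 arrays and were among the 16375 probes compared.

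Total RNA from brain tissue of mice of the C57BL/6 background, 8 months old, was hybridised to single-colour bead arrays. By sample title 5 arrays were wild type and 4 were CAIX knockout (CAIX, carbonic anhydrase IX, is a cell-surface enzyme made from the gene Car9). No treatment is named, and the labels do not give the sex of the animals, how the knockout allele was made, or which part of the brain was taken. Each array was treated as 1 mouse, since the design text counts as many mice as there are arrays.

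The groups rest on labels that conflict. The genotype characteristic names another genotype than the title for 6 samples, and the signal table and the processed table place 4 arrays, wild type 4 and 5 and knockout 3 and 4, under different samples. Titles and the signal table's headers are followed here. The probe NeoR-S, named for a neomycin resistance gene, was above background on 4 of 4 arrays titled knockout (log2 values 9.90 to 10.56) and on 0 of 5 titled wild type (6.78 to 6.82). The median signal ran from 189.75 to 209.8 on the 5 arrays in the first columns of the table, and from 133.2 to 184.3 on the 4 arrays in the last columns, which are those that the tables place differently.

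Markers of brain cells were present. Of 9 general neuronal genes 8 had a probe and 6 were measured, and all 6 myelin genes with a probe were measured. The probes of Snap25, Nefl and Gfap, abundant in brain, were not above background on enough arrays, so a missing probe signal is no sign of a missing transcript. Neither of the cerebellar genes that had a probe, Cbln3 and Car8, was measured. Of 13 hypothalamic genes 1 had a probe, Nkx2-1, and it was measured, though above background on only 4 arrays.

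Medium spiny neurons, the main cells of the striatum, receive dopamine and glutamate and send inhibitory output. Thalamic relay neurons carry sensory and other signals to the cortex, and their identity depends on transcription factors such as Tcf7l2. In the hippocampus, granule cells of the dentate gyrus contact pyramidal cells of the CA fields, and these cell types carry separate sets of surface and secreted proteins.

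The stretches of sequence before the start of a gene are shown for 5 of the members whose levels varied together or in opposition over the arrays. They are the upstream bases (250 each) of the first start listed for each gene in the RefSeq promoter table of GRCm38.p6, which matched 7 of the 9 genes, not Ido1 or Calb2, and lists more than 1 start for Drd1 and Tcf7l2. They run 5′ to 3′, and capitals mark matches on either strand to a GC box (GGGCGG, in 32.7% of 32851 promoters of this length) or to the core of a cAMP response element (TGACG, in 17.8%). The other motifs searched had no match in these 5 stretches. They were a TATA box (TATAAA, 12.4%), a CCAAT box (CCAAT, 33.8%), a TCF/LEF core (CTTTGA, 13.8%) and a ROR element core (AGGTCA, 14%). The stretch of Rora, whose level also varied with those of Tcf7l2 and Ntng1, had 0 matches and is not shown. A match is a description of the letters, not a binding site.
Drd1, chr13:54055659-54055908, minus strand: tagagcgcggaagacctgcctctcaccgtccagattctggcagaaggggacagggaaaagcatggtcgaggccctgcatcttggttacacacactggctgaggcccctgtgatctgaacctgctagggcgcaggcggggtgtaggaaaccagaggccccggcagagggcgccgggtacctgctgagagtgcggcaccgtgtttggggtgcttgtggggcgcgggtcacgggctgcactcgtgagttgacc
Tcf7l2, chr19:55741560-55741809, plus strand: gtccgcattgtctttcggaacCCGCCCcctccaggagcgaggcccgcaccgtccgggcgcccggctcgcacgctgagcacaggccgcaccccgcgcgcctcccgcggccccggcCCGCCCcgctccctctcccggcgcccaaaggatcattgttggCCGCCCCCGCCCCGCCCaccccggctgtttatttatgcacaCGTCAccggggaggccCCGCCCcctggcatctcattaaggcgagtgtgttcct
Ntng1, chr3:110143473-110143722, minus strand: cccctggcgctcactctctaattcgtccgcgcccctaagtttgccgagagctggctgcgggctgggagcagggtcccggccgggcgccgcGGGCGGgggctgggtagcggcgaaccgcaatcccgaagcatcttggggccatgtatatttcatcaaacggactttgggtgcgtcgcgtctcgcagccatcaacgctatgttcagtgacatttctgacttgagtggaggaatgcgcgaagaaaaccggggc
C1ql2, chr1:120340332-120340581, plus strand: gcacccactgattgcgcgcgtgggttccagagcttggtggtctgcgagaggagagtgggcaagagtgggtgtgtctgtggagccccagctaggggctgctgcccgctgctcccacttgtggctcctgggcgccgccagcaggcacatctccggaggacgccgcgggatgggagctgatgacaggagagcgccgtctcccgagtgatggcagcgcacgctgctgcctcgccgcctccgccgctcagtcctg
Fibcd1, chr2:31846006-31846255, minus strand: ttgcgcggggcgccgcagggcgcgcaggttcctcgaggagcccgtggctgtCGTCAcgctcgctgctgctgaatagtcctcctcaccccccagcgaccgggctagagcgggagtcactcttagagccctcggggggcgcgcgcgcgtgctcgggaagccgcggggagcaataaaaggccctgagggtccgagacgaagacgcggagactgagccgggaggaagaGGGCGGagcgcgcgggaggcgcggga

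Values below are log2 signals after background correction and quantile normalization, on which a difference of 1 is a doubling. The lowest value of a probe above background was close to 7 on this scale, between 6.93 and 6.97 depending on the array. Values can be compared between arrays for 1 probe, but not between probes.

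Drd1 encodes the dopamine D1 receptor of medium spiny neurons in the direct pathway. On the wild-type arrays 1 to 5 it stood at 10.35, 9.52, 9.23, 10.35 and 10.07, and on knockout 1 to 4 at 7.87, 7.25, 10.46 and 10.06. Knockout 1 and 2 were low and the other 7 arrays high, and the highest value was also on a knockout array, so the groups overlapped. From the lowest to the highest array the level differed 9.25-fold. Drd1 ranked 8 of 16375 compared probes by SD over the arrays (SD 1.16, against a median of 0.11 over all compared probes).

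Ido1 encodes indoleamine 2,3-dioxygenase, which opens the ring of tryptophan at the head of the kynurenine pathway. It stood at 8.63, 7.78, 7.67, 8.51 and 8.05 on wild type 1 to 5 and at 6.96, 6.87, 8.42 and 8.74 on knockout 1 to 4. It was above background on all 5 wild-type arrays and on 2 of 4 knockout arrays. The arrays on which it was not above background were knockout 1 and 2, the same arrays on which Drd1 was lowest, so the 3.67-fold range of Ido1 is cut short at its lower end.

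**Figure D1:**
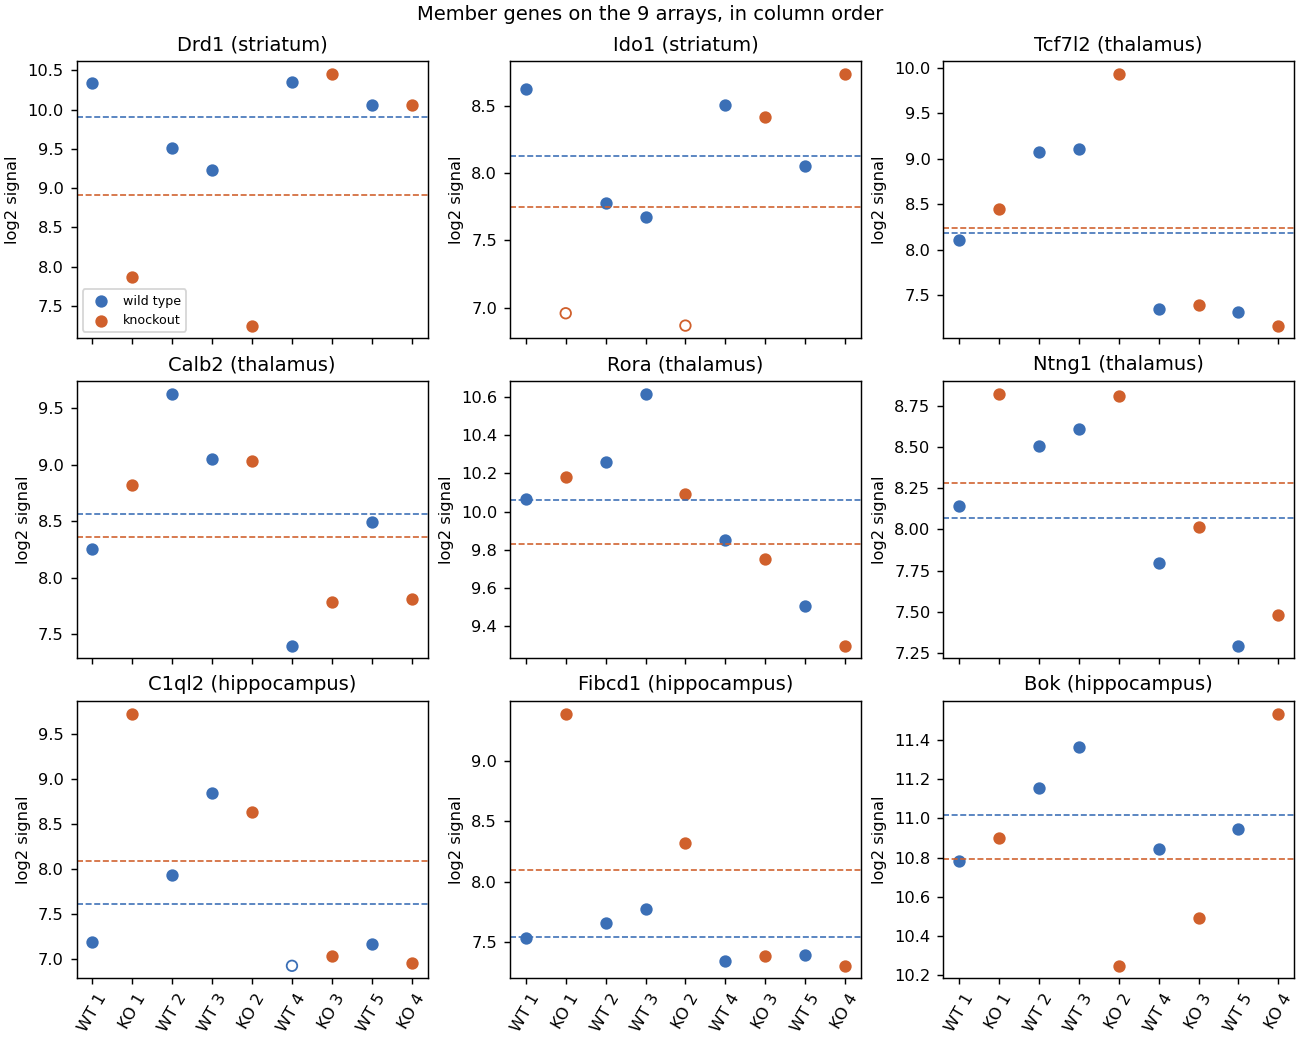
Log2 signal of the 9 genes (vertical axis, own scale in each panel) on the 9 arrays in the column order of the signal table (horizontal axis), blue for wild type and orange for knockout by title; filled points were above background, open points were not, and dashed lines are group means. Drd1 and Ido1 are lowest on knockout 1 and 2, while Tcf7l2, Rora, C1ql2 and Fibcd1 are higher on each of the first 5 columns than on any of the last 4.

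Tcf7l2, the transcription factor at the end of canonical Wnt signalling, stood at 8.10, 9.07, 9.11, 7.35 and 7.31 on wild type 1 to 5 and at 8.45, 9.94, 7.39 and 7.16 on knockout 1 to 4. The values formed a high set, wild type 1 to 3 with knockout 1 and 2, and a low set, wild type 4 and 5 with knockout 3 and 4. Both groups were in both sets, and the range over arrays was 6.84-fold. A further Tcf7l2 probe was above background on 0 of the 9 arrays (6.69 to 6.78) and gives no level.

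The high and low sets are also the first and last columns of the table, with the higher and lower median signals given above. The part of column order and overall signal in the levels was not tested.

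Rora, a nuclear receptor of relay neurons in sensory thalamus, was at 10.06, 10.26, 10.62, 9.85 and 9.50 on wild type 1 to 5 and at 10.18, 10.09, 9.75 and 9.30 on knockout 1 to 4. Ntng1 encodes netrin-G1, a membrane-anchored protein of thalamocortical axons. It was at 8.14, 8.51, 8.61, 7.80 and 7.30 on wild type 1 to 5 and at 8.82, 8.81, 8.01 and 7.48 on knockout 1 to 4. Both genes had the same high and low sets as Tcf7l2, over a narrower range (2.49-fold for Rora, 2.88-fold for Ntng1). A second Ntng1 probe lay near background on every array, at 6.92 to 7.02, and did not show this pattern.

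Calb2 encodes calretinin, a calcium-binding protein of midline thalamic cells that many interneurons also carry. It was at 8.26, 9.63, 9.05, 7.40 and 8.49 on wild type 1 to 5 and at 8.82, 9.03, 7.78 and 7.81 on knockout 1 to 4. Here the sets touched, with wild type 5 above wild type 1.

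C1ql2 encodes a secreted C1q-like protein that dentate granule cells release at mossy fibre synapses. It was at 7.19, 7.93, 8.84, 6.93 and 7.17 on wild type 1 to 5 and at 9.72, 8.63, 7.04 and 6.96 on knockout 1 to 4. Knockout 1 was highest, followed by wild type 3 and knockout 2, and the 5 lowest arrays lay within 6.93 to 7.19, close to background. On wild type 4 the probe was not above background.

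Fibcd1, an acetyl-binding membrane receptor found in CA1 pyramidal cells of the mouse, was at 7.54, 7.66, 7.77, 7.35 and 7.40 on wild type 1 to 5 and at 9.39, 8.32, 7.39 and 7.31 on knockout 1 to 4. Knockout 1 and 2 stood above all other arrays, while knockout 3 and 4 lay among the lowest. Bok, a relative of the BCL-2 family of cell death regulators that CA3 neurons express strongly, was at 10.78, 11.16, 11.36, 10.84 and 10.95 on wild type 1 to 5 and at 10.90, 10.25, 10.49 and 11.54 on knockout 1 to 4. Bok did not follow the order of the other hippocampal genes: it was highest on knockout 4, where Fibcd1 was lowest.

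The mean of each region's members, taken relative to their mean over the 9 arrays, summarises these orders. The striatal mean ran from -1.65 on knockout 2 and -1.30 on knockout 1 to 0.78 on wild type 1. The thalamic mean ran from -0.76 on knockout 4 to 0.77 on knockout 2, and the hippocampal mean from -0.54 on knockout 3 to 1.16 on knockout 1. Without Bok the hippocampal mean ran from -0.68 on knockout 4 to 1.74 on knockout 1, with knockout 2 next at 0.67. By these means knockout 2 was lowest for the striatum and highest for the thalamus, and knockout 1 was highest for the hippocampus with or without Bok. Of the thalamic members, however, only Tcf7l2, the one that varied most, was highest on knockout 2. Calb2 was highest on wild type 2, Rora on wild type 3 and Ntng1 on knockout 1.

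The difference of the striatal and thalamic means separated the arrays further. It was -2.42 on knockout 2, -1.66 on knockout 1, -0.90 on wild type 3 and -0.73 on wild type 2, and it was between 0.84 and 1.45 on the other 5 arrays. In RNA from bulk tissue, fewer cells of a type and less RNA per cell cannot be told apart, so these means rank the arrays by transcript level and give no shares of tissue. What piece of brain each sample held was not measured.

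**Figure D2:**
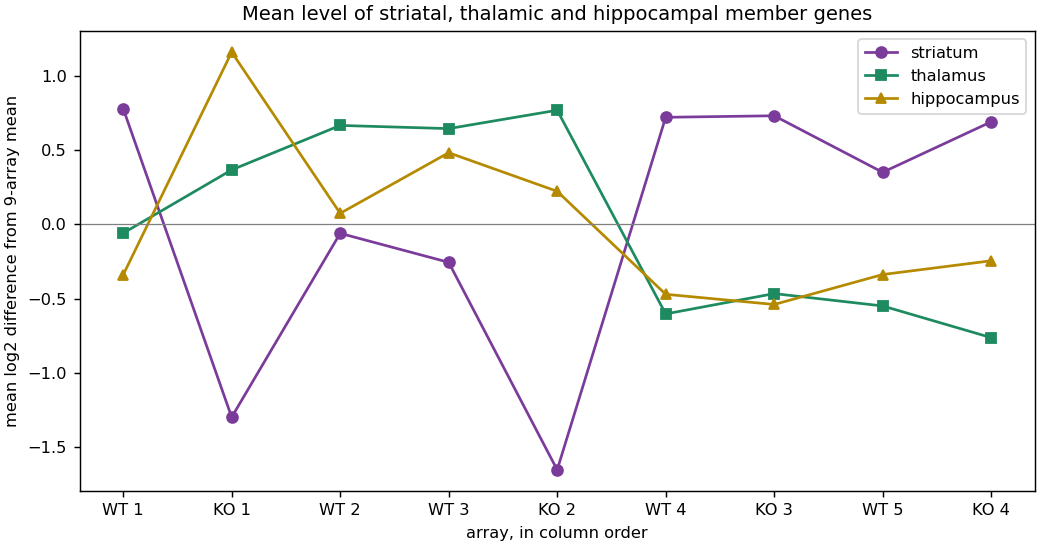
Mean log2 difference from the 9-array mean (vertical axis) of the striatal (circles), thalamic (squares) and hippocampal (triangles) members, by array in column order (horizontal axis). The striatal line is lowest on knockout 1 and 2 (-1.30 and -1.65), where the thalamic line stands at 0.37 and 0.77 and the hippocampal line at 1.16 and 0.22.

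Whether these levels differed with the knockout was the question of the design. None of the 10 member probes passed the threshold in a fit over all compared probes (limma, adjusted p from 0.618 to 0.988), and 0 had an unadjusted p under 0.05. Over all 16375 probes 4 were called, or 0.0244%, and 11.5% had an unadjusted p under 0.05. Groups overlapped for all 10, while 3.68% of all compared probes had groups that did not. The knockout mean was higher for 4 of the 10 and lower for 6, against 49.8% and 50.2% of all compared probes.

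The striatal pair had the lower means in the knockout. The wild-type mean of Drd1 was 9.90 ± 0.50 (SD, n = 5) and its knockout mean 8.91 ± 1.59 (SD, n = 4), a log2 difference of -0.99 (SE 0.65, 95% interval -2.46 to 0.47, limma adjusted p = 0.618). Ido1 was at 8.13 ± 0.43 (SD, n = 5) and 7.75 ± 0.97 (SD, n = 4), a difference of -0.38 (95% interval -1.33 to 0.56, limma adjusted p = 0.797). Knockout arrays varied more than wild type for both genes. Both differences rest on knockout 1 and 2: without knockout 2 that of Drd1 was -0.44 and that of Ido1 -0.089, and without knockout 1 they were -0.65 and -0.12.

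Thalamic members went both ways. Tcf7l2 differed by 0.05 (SE 0.62), from 8.19 ± 0.88 (SD, n = 5) in wild type to 8.23 ± 1.27 (SD, n = 4), and the 95% interval of -1.36 to 1.45 spans more than a doubling in either direction. Calb2 differed by -0.20 (95% interval -1.22 to 0.81), Rora by -0.23 (-0.77 to 0.32) and Ntng1 by 0.21 (-0.57 to 0.99). The near-background Ntng1 probe differed by -0.01. None of these intervals excludes 0.

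In the hippocampal group C1ql2 differed by 0.47 (SE 0.62, 95% interval -0.93 to 1.87), from 7.61 ± 0.78 (SD, n = 5) in wild type to 8.08 ± 1.33 (SD, n = 4). Fibcd1 differed by 0.56 (SE 0.38, 95% interval -0.31 to 1.42, limma adjusted p = 0.643), from 7.55 ± 0.18 (SD, n = 5) to 8.10 ± 0.97 (SD, n = 4). Both rest on knockout 1: without it C1ql2 differed by -0.07 and Fibcd1 by 0.13. Bok differed by -0.23 (95% interval -0.77 to 0.32).

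**Figure D3:**
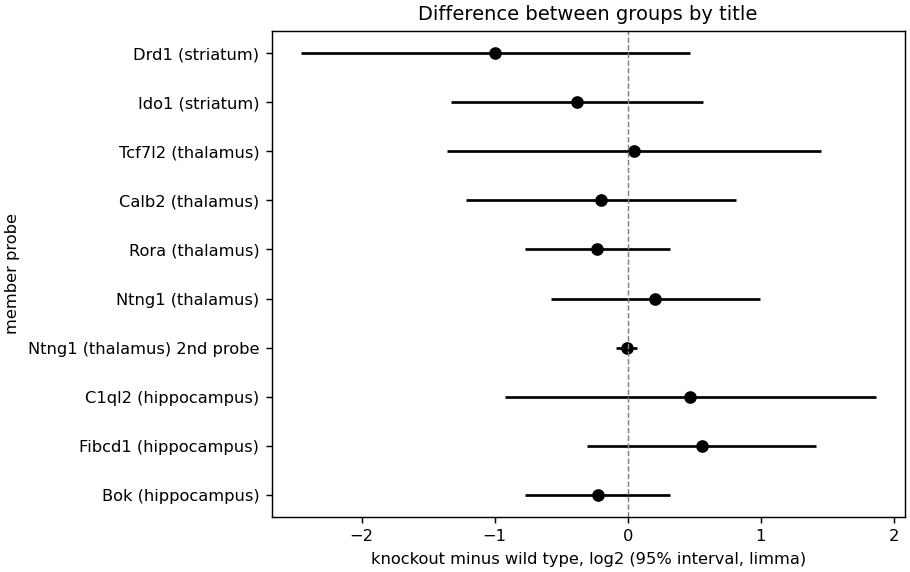
Knockout minus wild type on the log2 scale (horizontal axis) for the 10 compared member probes (vertical axis), as points with 95% intervals from limma. All intervals include 0, from Drd1 at -0.99 to Fibcd1 at 0.56.

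The 5 arrays that both deposited tables place under the same sample give a further reading, chosen after the values were seen. Among them are wild type 1, 2 and 3 and knockout 1 and 2. In that subset Drd1 was 9.23 to 10.35 in wild type and 7.25 to 7.87 in the knockout, a difference of -2.14 (SE 0.36, limma adjusted p = 0.142). Ido1 was not above background on either knockout array, so only a bound can be given: it was at least 2.10-fold lower than the wild-type mean of 8.03, taking the lowest value above background on each knockout array (measured knockout mean 6.91, limma adjusted p = 0.221). Fibcd1 differed by 1.20 (adjusted p = 0.211) and Ntng1 by 0.40 (adjusted p = 0.341), both in limma, and the groups did not overlap for these 4 of 9 genes. Of all compared probes 28.9% had groups that did not overlap in this subset. No member was called, and 3 probes in all were (0.0183%). Knockout 3 and 4, left out of this subset, had Drd1 at 10.46 and 10.06, within or above the wild-type range.

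Members of a region other than Bok all had a positive r with each other over the 9 arrays, and the striatal members had a negative r with the thalamic members and with C1ql2 and Fibcd1. These relations are pooled over the first and last columns of the table. With the mean of each of these sets of columns subtracted, a setting chosen after the values were seen, 0 of the 36 pairs of members had an adjusted p under 0.05 and 1 had an unadjusted p under 0.05 (exact permutation within the sets, smallest adjusted p = 0.425). Drd1 and Ido1 followed each other over the 9 arrays (Pearson r = 0.946, exact permutation p = 0.000369, adjusted p = 0.0111 over the 36 pairs of members, Spearman rho = 0.767, exact permutation p = 0.0214). Leaving out knockout 1 and 2, the arrays farthest from the median of Drd1, left r = 0.839 over 7 arrays. Of the other 16374 compared probes, 19 had a higher r with Drd1 than Ido1 did.

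All 6 pairs of thalamic members had a positive r, from 0.658 to 0.869, with a median of 0.799. The highest was between Tcf7l2 and Ntng1 (r = 0.869, exact permutation p = 0.00346, adjusted p = 0.0224, rho = 0.883, exact permutation p = 0.00308, and r = 0.842 without wild type 3 and knockout 2). C1ql2 and Fibcd1 were close as well (r = 0.902, exact permutation p = 0.000615, adjusted p = 0.0111, rho = 0.967, exact permutation p = 0.000165, and r = 0.962 without knockout 1 and wild type 3). Bok stood apart from its region, with r = -0.05 to C1ql2 (exact permutation p = 0.899) and -0.23 to Fibcd1 (exact permutation p = 0.552).

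Between striatum and thalamus all 8 pairs had a negative r, from -0.786 to -0.444. The pairs with Rora (exact permutation, adjusted p = 0.299 for Drd1 and 0.179 for Ido1) and with Calb2 (0.144 and 0.0657) were not called. For Drd1 and Tcf7l2 the r was -0.779 (exact permutation p = 0.0109, adjusted p = 0.0346, rho = -0.667, exact permutation p = 0.0589), and -0.820 without knockout 1 and 2. Drd1 also opposed C1ql2 (r = -0.855, exact permutation p = 0.00533, adjusted p = 0.0240, rho = -0.800, exact permutation p = 0.0138), with -0.922 without knockout 1 and 2. Ido1 and C1ql2 had r = -0.899 (exact permutation p = 0.00175, adjusted p = 0.0158, rho = -0.817, exact permutation p = 0.0108, and -0.847 without knockout 1 and 2). Thalamic members went with C1ql2 and Fibcd1 rather than against them, all 8 pairs with a positive r between 0.449 and 0.844. Only the pairs of Ntng1 were called (exact permutation, adjusted p = 0.0240 with C1ql2 and 0.0346 with Fibcd1). For Tcf7l2, Calb2 and Rora the adjusted p lay between 0.063 and 0.299 (exact permutation).

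In all, 16 of 36 pairs had an adjusted p under 0.05, 8 positive and 8 negative, and none of them involved Bok. After subtraction of each group's mean, 9 pairs did (exact permutation within groups). Not all of these were among the 16: Drd1 with Calb2 and Rora with C1ql2 were added, and others lost their call. No pair of a striatal and a hippocampal member was among the 9. For Drd1 and C1ql2 the adjusted p was then 0.0734, and for Ido1 and C1ql2 0.0523 (exact permutation within groups). The 16 pairs had an absolute r of at least 0.735, as did 4.32% of all pairings of a member with the 16365 compared probes of no member gene. The members were chosen with earlier results of these data known. By SD over the arrays, their probes used here ranked from 8 (Drd1) to 389 (Rora) of 16375. The p-values and the share of 4.32% therefore describe these arrays and are no independent test of co-variation. The arrays lie partly in sets: for Tcf7l2 the last 4 columns fell within 7.16 to 7.39 and the first 5 within 8.10 to 9.94. With the means of these sets subtracted, all 16 pairs kept their sign and none kept its call. The r was then 0.910 for Drd1 and Ido1 (exact permutation p = 0.0118), 0.851 for C1ql2 and Fibcd1 (exact permutation p = 0.0587), -0.744 for Drd1 and C1ql2 (exact permutation p = 0.135) and -0.599 for Drd1 and Tcf7l2 (exact permutation p = 0.303). Of the striatal and thalamic pairs 7 of 8 then had a negative r, and of the thalamic pairs 4 of 6 a positive one. Fibcd1 then had r = -0.020 with Tcf7l2, -0.032 with Calb2, -0.136 with Rora and 0.531 with Ntng1. For C1ql2 the r with these genes, in the same order, was 0.225, 0.227, 0.203 and 0.594. No r was computed within a single set, which holds 5 or 4 arrays. Leaving out 1 array at a time gave between 4 and 18 pairs, the fewest without knockout 4.

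**Figure D4:**
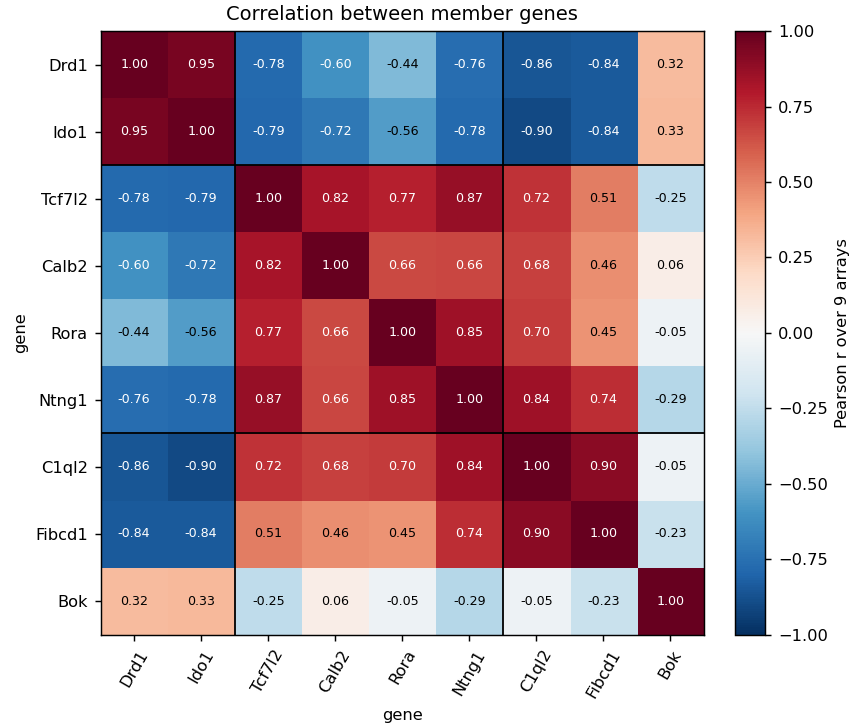
Pearson r over the 9 arrays for each pair of the 9 genes (both axes), red for positive and blue for negative, with lines between striatal, thalamic and hippocampal genes. The striatal rows are blue against all thalamic genes and against C1ql2 and Fibcd1, and the Bok row is pale throughout, within -0.29 and 0.33.

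**Figure D5:**
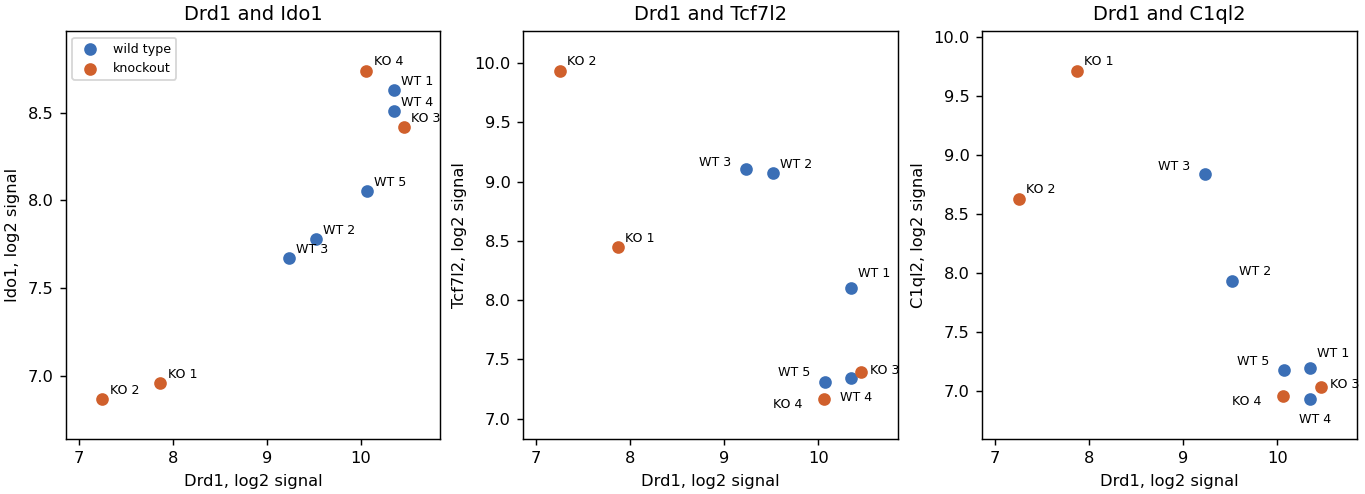
Log2 signal of Ido1, Tcf7l2 and C1ql2 (vertical axes) against that of Drd1 (horizontal axis), 1 point per array, blue for wild type and orange for knockout by title. Knockout 1 and 2 lie at the low end of Drd1 (7.87 and 7.25) in each panel, and wild type 2 and 3 (9.52 and 9.23) lie between them and the other 5 arrays.

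Other genes of the same regions were taken from lists of known markers. Of 28 further striatal genes 9 had a probe and 7 were measured. All 7 had a lower mean in the knockout, as did 50.2% of all compared probes. By limma 0 were called (0.0244% of all probes) and 1 had an unadjusted p under 0.05 (11.5% of all probes). The median difference was -0.41 where that of all compared probes was -0.00035. Each of the 7 was lowest on knockout 1 or knockout 2, the arrays on which Drd1 was lowest. Gpr6 (6.78 to 7.07, above background on 5 arrays) and Gnal (6.89 to 7.30, on 7 arrays) lay near background. The 3 with the smallest p were Foxp1, a transcription factor of striatal neurons (-0.47, SE 0.19, limma adjusted p = 0.383), Pde1b, a calmodulin-dependent phosphodiesterase (-0.68, SE 0.32, adjusted p = 0.468), and Bcl11b, a transcription factor needed by medium spiny neurons (-0.41, SE 0.24, adjusted p = 0.571).

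These further striatal genes moved with Drd1 across arrays. All 7 had a positive r with it, with a median of 0.852, while 49.5% of all compared probes had a positive r. The r was negative for all 7 with Tcf7l2 (median -0.680) and with C1ql2 (median -0.794). Among named genes the 5 closest to Drd1 over the 9 arrays were Rragd (r = 0.983), a GTPase of amino acid sensing, Pde1b (0.978), Adcy5 (0.971), the main adenylyl cyclase of the striatum, Zswim6 (0.969) and Gnb5 (0.963), a G protein beta subunit. Pde1b and Adcy5 are on the striatal list.

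For the thalamus 22 further genes gave 6 with a probe and 1 measured, the potassium channel subunit Kcnc2, with a difference of 0.01 and r = 0.474 with Tcf7l2. Kcnc2 lay near background and varied little, from 7.03 to 7.15 (SD 0.039). The 5 named genes closest to Tcf7l2 were Shox2 (r = 0.974), a homeodomain factor that thalamic neurons express, Chrna4 (0.966), the nicotinic receptor subunit alpha-4, Nefh (0.946), the heavy neurofilament chain, Dpysl3 (0.931) and Sobp (0.908). Of these, Nefh differed most between groups, by 0.09 (limma adjusted p = 0.944).

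Of 28 further hippocampal genes 9 had a probe and 5 were measured, 2 with a higher and 3 with a lower mean in the knockout, 0 called by limma and 0 at an unadjusted p under 0.05. The median difference was -0.01. Those with the smallest p were Lefty1, a secreted antagonist of Nodal signalling (0.12, adjusted p = 0.571), Zbtb20, a zinc finger transcriptional repressor required for CA1 identity (-0.13, adjusted p = 0.747), and Dgkh, a diacylglycerol kinase (0.12, adjusted p = 0.819), all in limma. With C1ql2, 4 of the 5 had a positive r, with a median of 0.682. Prox1, the transcription factor of dentate granule cells, was among them at 0.844, and is named after its value was seen. Prox1 (at most 7.33, SD 0.115, above background on 9 arrays) and Lefty1 (6.82 to 7.21, on 4 arrays) lay near background. Lefty1 had r = 0.887 with C1ql2. Amigo2 (7.63 to 8.75) and Zbtb20 (8.01 to 8.75) lay higher, with r = 0.682 and 0.168.

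The 5 named genes closest to C1ql2 were Tafa1 (r = 0.957), a secreted chemokine-like protein, Faah (0.911), which degrades anandamide, Ifit3 (0.907), an interferon-induced protein, the member Fibcd1 (0.902), and Wls (0.902), which carries Wnt proteins to the cell surface. Ifit3 varied little over the arrays, with an SD of 0.067.

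Markers of other regions and cell types were set against the most variable member of each region. All 3 measured choroid plexus genes of 10 listed had a positive r with C1ql2, with a median of 0.717. Of these, Col8a1 lay near background (6.88 to 7.29, above background on 5 arrays). The summed linear level of the 3 genes ran from 1337 to 3246 in wild type and from 1418 to 3338 in the knockout. Of 6 measured myelin genes of 13 listed, 5 had a positive r with Tcf7l2 (median 0.491). All 6 had a lower mean in the knockout (median -0.35), as did 50.2% of all compared probes. By limma 0 were called (0.0244% of all probes) and 1 had an unadjusted p under 0.05 (11.5% of all probes). Mobp, Mog, Cnp, Fa2h and Trf were lowest on knockout 4, where Opalin was highest. The summed level of the 6 myelin genes ran from 4760 to 6918 in wild type and from 3317 to 5235 in the knockout.

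For the 6 measured general neuronal genes the median r was -0.03 with Drd1, 0.22 with Tcf7l2 (5 of 6 positive) and -0.01 with C1ql2. Their summed level ran from 28601 to 32742 in wild type and from 26225 to 30792 in the knockout. For 6 measured cortical genes of 16 listed the median r was -0.13 with Drd1 and 0.22 with Tcf7l2. For 5 measured astrocyte genes of 9 it was -0.03 and 0.01, and for 4 measured vessel and blood genes of 9 it was 0.05 and -0.07. The 4 measured microglial genes of 9 had a median r of 0.21 with Drd1 and -0.49 with Tcf7l2. The olfactory bulb list had 2 measured genes of 12, with a median r of 0.38 with Drd1, -0.48 with Tcf7l2 and -0.57 with C1ql2. Of these, Pbx3 had r = 0.77 with Drd1 and -0.93 with C1ql2, and Dcx -0.01 and -0.22. The hypothalamic Nkx2-1 had r = 0.68 with Drd1, -0.29 with Tcf7l2 and -0.49 with C1ql2. It lay near background, from 6.76 to 7.07, and was above background on 4 arrays. The part of other tissue in the members' levels was not tested.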

How the data were processed

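Gene expression was measured on 9 bead arrays of mouse brain RNA, 5 titled wild type and 4 titled knockout. Per the file headers, the authors deposited linear bead intensity without normalization. The fraction the authors deposited beside each intensity, headed as a detection p-value, rose with the intensity (lowest rank correlation 0.992), so 1 minus it was used. The processed values the authors deposited are log2 values, judged from their range, and served as an alternative. The sources used here name no scanner, software or array version.

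Of 46120 rows 4 that the processed table lacks were left out. The neqc function (limma 3.58.1, R 4.3.3) corrected background by normexp and normalized by quantiles after adding 16. A probe was kept if its detection p was under 0.05 on 4 or more arrays. The 16375 kept probes were fitted together with lmFit and eBayes, and two-sided p-values were adjusted by Benjamini and Hochberg's method and called under 0.05. The fit was tested on simulated data with noise independent between probes and arrays, which does not cover patterns that probes share across arrays.

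Gene names come from RefSeq's table of GRCm38.p6 through the number in identifiers that begin with scl0 or scl00, read as an NCBI gene number. Of 10024 numbers 81.1% were in the table, so the reading is an inference. Where a gene had several kept probes, the one of highest mean stood for it in correlations and lists. Correlations were tested exactly over all 362880 orders of the arrays (2880 within groups). No list was given a test of its own.

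All 9 members, their probes, up to 3 genes of smallest p per further region list, and the 5 named genes closest to the most variable member of each region are named. Members and lists were chosen with earlier results of these data known. Alternatives were other groupings, background corrections, normalizations and filters, array weights, the replicate block, means of the first and last columns subtracted, and leaving out arrays. Precision is limited by how few arrays there are.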

Additional observations from a re-analysis of the deposited data

How the results depend on the processing

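The count of 0 called members held under all alternatives run, with a smallest limma adjusted p of 0.142 (the 5 arrays placed alike). The count of all probes called (4, of which 3 higher and 1 lower in the knockout) became 1 with the replicate block, 11 (4 higher and 7 lower) without background correction, 2 (2 higher and 0 lower) with median scaling, 13 (4 higher and 9 lower) with the processed values and 0 with probes above background on all 9 arrays (1622 at an unadjusted p under 0.05). It was 0 with the genotype characteristic, with titles as the processed table places them, and with the characteristic placed so (669, 615 and 391 at an unadjusted p under 0.05). Leaving out 1 array gave 2 to 48, the most without knockout 1. The count of correlated pairs (16) became 9 with group means subtracted, not all of them among the 16. It became 0 with the means of the first and last columns subtracted (1 at an unadjusted p under 0.05). Leaving out 1 array gave 4 to 18 pairs: 4 without knockout 4, 8 without wild type 4 or knockout 3, and 9 without wild type 3.

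Of 197 recomputed member differences, none of them called, 20 changed sign. With the replicate block Tcf7l2 was -0.17. With the genotype characteristic Tcf7l2 was -0.28, Rora 0.14, Ntng1 -0.059 (near-background probe 0.034) and Bok 0.17. With the characteristic as the processed table places it they were -0.33 for Tcf7l2, 0.0082 for Rora, 0.28 for Bok and 0.0011 for the near-background Ntng1 probe, which was 0.027 both with titles placed so and with the 5 arrays placed alike. Leaving out 1 array gave -0.52 to 0.40 for Tcf7l2, -0.49 to 0.063 for Calb2, -0.073 to 0.85 for C1ql2 and -0.025 to 0.0074 for that Ntng1 probe. The causes were not tested. Replicate numbers did not pair the arrays: deviations of same-numbered arrays correlated at 0.10, 0.09, -0.31 and 0.01.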
